A study of Homo sapiens with 60 samples.

Results

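The genes described here are 10 antioxidant genes. They are the quinone reductase gene NQO1 and, of the glutathione and thioredoxin systems, GCLC, GCLM, SLC7A11, TXNRD1, SRXN1, GSR, GPX2, PRDX1 and TXN. They were chosen by name for their function, with earlier results of these data known. They are 10 of the 60675 genes in the deposited table, and all 10 passed the filter on low counts. RNA was sequenced from HT29 cells, an established line from a human colorectal adenocarcinoma, 24 h after the addition of a hot water extract or of dimethyl sulfoxide, the vehicle. The vehicle group had 3 libraries, and it is unmodified HT29 cells in dimethyl sulfoxide, for which the labels and the design text give different concentrations. Of the treated groups, 18 had 3 libraries each: 500, 100 and 20 µg/mL of Cinnamomi Cortex (cinnamon bark), Cnidii Rhizoma, Rehmanniae Radix Preparata, Astragali Radix, and the herbal formulae Samul-tang and Sagunja-tang. Paeoniae Radix had 1 library at each dose and was not tested. All groups are of the same line, with no genetic change named in the labels, and an extract is a mixture whose active compounds the labels do not give. Doses are as labelled, although the design text says that a more toxic extract was given at a lower top dose.

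NRF2 (encoded by NFE2L2) is the transcription factor that links these genes. KEAP1 holds it in the cytoplasm and marks it for degradation until oxidants or electrophiles modify KEAP1, after which NRF2 binds antioxidant response elements in promoters together with small MAF proteins. Glutathione is built from cysteine, glutamate and glycine and is used by peroxidases and transferases, and thioredoxin is a small protein that keeps cysteines of other proteins reduced. Both systems draw their electrons from NADPH. GPX2 is the glutathione peroxidase typical of the gut epithelium.

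Promoters are shown first, because NRF2 binding is the property by which these genes are usually grouped. RefSeq promoter sequences (GRCh38.p14, 250 bases before to 50 after a transcription start) were at hand for 7 of the 10 genes, in 8 promoters. They were searched on both strands for TGACNNNGC, the core letters of the antioxidant response element. It occurred in 4 promoters of 3 genes, GCLM, TXNRD1 and GPX2, and in 13.3% of all 35116 promoters of that length. The 3 stretches of 89 bases below, each from another of these genes and written on the gene's own strand, have the match in capitals. All 3 matches are on the opposite strand, so the capitals read as the reverse complement of the search letters. For TXNRD1, which has 2 promoters in the table, the downstream one is shown.
GCLM, chr1:93909416-93909504, minus strand: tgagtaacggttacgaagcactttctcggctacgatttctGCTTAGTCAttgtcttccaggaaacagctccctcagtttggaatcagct
TXNRD1, chr12:104286890-104286978, plus strand: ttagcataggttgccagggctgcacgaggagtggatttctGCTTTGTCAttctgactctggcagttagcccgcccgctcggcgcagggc
GPX2, chr14:64942819-64942907, minus strand: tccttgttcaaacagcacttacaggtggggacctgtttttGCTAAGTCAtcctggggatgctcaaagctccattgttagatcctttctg
The match lay at bases -34 to -26 from the start in GCLM, -102 to -94 in TXNRD1 and -122 to -114 in GPX2. The other TXNRD1 promoter held it at -99 to -91 and at -8 to 1. These matches are descriptions of letters and say nothing of binding in these cells.

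In GENCODE release 29 on GRCh38, all 10 are protein-coding genes. NQO1 (ENSG00000181019) spans chr16:69706996-69726951, GCLC (ENSG00000001084) chr6:53497341-53616970, GCLM (ENSG00000023909) chr1:93885205-93909456 and SLC7A11 (ENSG00000151012) chr4:138164097-138242349, all on the minus strand. TXNRD1 (ENSG00000198431), the one gene on the plus strand, spans chr12:104215779-104350305. SRXN1 (ENSG00000271303) spans chr20:646615-653370, GSR (ENSG00000104687) chr8:30678061-30727999, GPX2 (ENSG00000176153) chr14:64939152-64942905, PRDX1 (ENSG00000117450) chr1:45511036-45523047 and TXN (ENSG00000136810) chr9:110243811-110256640. Exons of NQO1, GCLC, SLC7A11 and PRDX1 overlap those of a gene on the opposite strand, and the strand setting of the counting is not given in the sources used here. The overlapping gene with the most counts beside its partner was MMACHC, with 26046 over all 60 libraries against 722166 for PRDX1. Exons of GCLC and SRXN1 also overlap a gene on their own strand, with 1044 and 0 counts. Reads of such pairs cannot be fully told apart.

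The 60 libraries held 20459346 to 36253747 counts each. All 11 colon epithelial markers were detected in all 57 tested libraries, from CDX1 at 0.478 to 1.35 CPM (counts scaled to a fixed library total) to KRT8 at 5630 to 7370 CPM, as an epithelial line should have. The T cell marker CD3D and the B cell marker MS4A1 had 0 counts in all 57, and the fibroblast collagen COL1A2 had 0 in 55. Other genes of these 2 lists had counts in all 57. In the leukocyte list these were LYZ at 1240 to 1680 CPM, CD68 at 3.66 to 9.74 CPM and CD14 at 2.38 to 4.26 CPM. In the fibroblast list they were COL1A1 at 0.752 to 1.93 CPM and LUM at 0.45 to 1.23 CPM, near the level of CDX1. The remaining genes of both lists reached at most 0.351 CPM. The summed epithelial markers were at 11600 to 12100 CPM in the vehicle and 12500 to 14200 CPM in Cinnamomi Cortex at 500 µg/mL. There 4 of the 11 were called higher and 0 lower, beside 6.22% of all genes higher. With a term for the library set, described next, it was 2 and 1, beside 5.8% of all genes higher. The sums also lay wholly above the vehicle in Samul-tang (12200 to 12400 CPM) and Sagunja-tang (12400 to 13100 CPM) at 500 µg/mL, and in Cinnamomi Cortex, Astragali Radix and Samul-tang at 100 µg/mL. They did not in Cnidii Rhizoma (11200 to 11900 CPM) or Rehmanniae Radix Preparata (11400 to 11700 CPM) at 500 µg/mL. The part of this shift in the results was not tested. The summed fibroblast markers were at 2.04 to 2.56 CPM in the vehicle and 2.15 to 2.57 CPM in Cinnamomi Cortex at 500 µg/mL. The labels put every library in the same batch and do not say what their sample codes stand for. The codes were split here into 2 library sets, with earlier results of these data known, so the sets are not the study's own. The first principal component (15.7% of the variance) separated these sets except for the Cinnamomi Cortex library of 500 µg/mL numbered 2, which lay with set 1 against its code, and this is a description of the split and no independent support for it. All vehicle, Cnidii Rhizoma and Rehmanniae Radix Preparata libraries are in set 1 and all of both formulae in set 2, while each Cinnamomi Cortex and Astragali Radix group has replicate 1 in set 1 and the others in set 2. For the formulae, set and treatment are therefore parted only through the 6 groups that fall in both sets, and results with a term for the set are given beside those without it. In those 6 groups set 1 is replicate 1 alone, so set and replicate number cannot be told apart there. Where nothing says that replicates were separate cultures, p-values measure the spread between libraries, which may be technical.

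Untreated levels differed widely between the genes. Per kilobase of exon, the mean level in the vehicle was 613 CPM per kb for GPX2, 295 for TXN, 266 for PRDX1, 141 for NQO1, 46.2 for TXNRD1, 21.1 for SRXN1, 16.2 for GSR, 15.6 for SLC7A11, 11.5 for GCLM and 11.4 for GCLC. The ranges over the 3 libraries overlapped between the neighbours TXN (273 to 313) and PRDX1 (226 to 299), GSR (15.6 to 16.8) and SLC7A11 (14.4 to 16.5), and GCLM (10.8 to 12) and GCLC (10.3 to 12.1). The other neighbours in this order did not overlap. GPX2 lay at the 99.8th percentile of the 16356 genes tested and GCLC at the 76.4th.

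The comparison with the vehicle asks which extracts moved these genes at which dose. It was tested with edgeR's quasi-likelihood test on all 57 libraries, and a gene was called where its p, adjusted over all 16356 genes by the Benjamini-Hochberg method, was under 0.05. At 500 µg/mL, Cinnamomi Cortex raised 9 of the 10 genes, where 6.22% of all genes were called higher. Samul-tang raised 8 (10.2% of all genes), Cnidii Rhizoma 6 (0.734%), Sagunja-tang 5 (11.7%) and Rehmanniae Radix Preparata 2 (0.404%). No member was called lower at that dose. Astragali Radix gave 0 calls among the members (2.12% of all genes called higher); at an unadjusted p under 0.05 it had 2 higher and 1 lower, and DESeq2 also called 0. All these comparisons share the same 3 vehicle libraries and are given side by side, not as independent evidence. Where libraries are said below not to overlap the vehicle, the share of all genes for which this holds was not counted. In a bulk library, a change in the share of cells that express a gene and a change in its RNA per cell cannot be told apart.

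**Figure D1:**
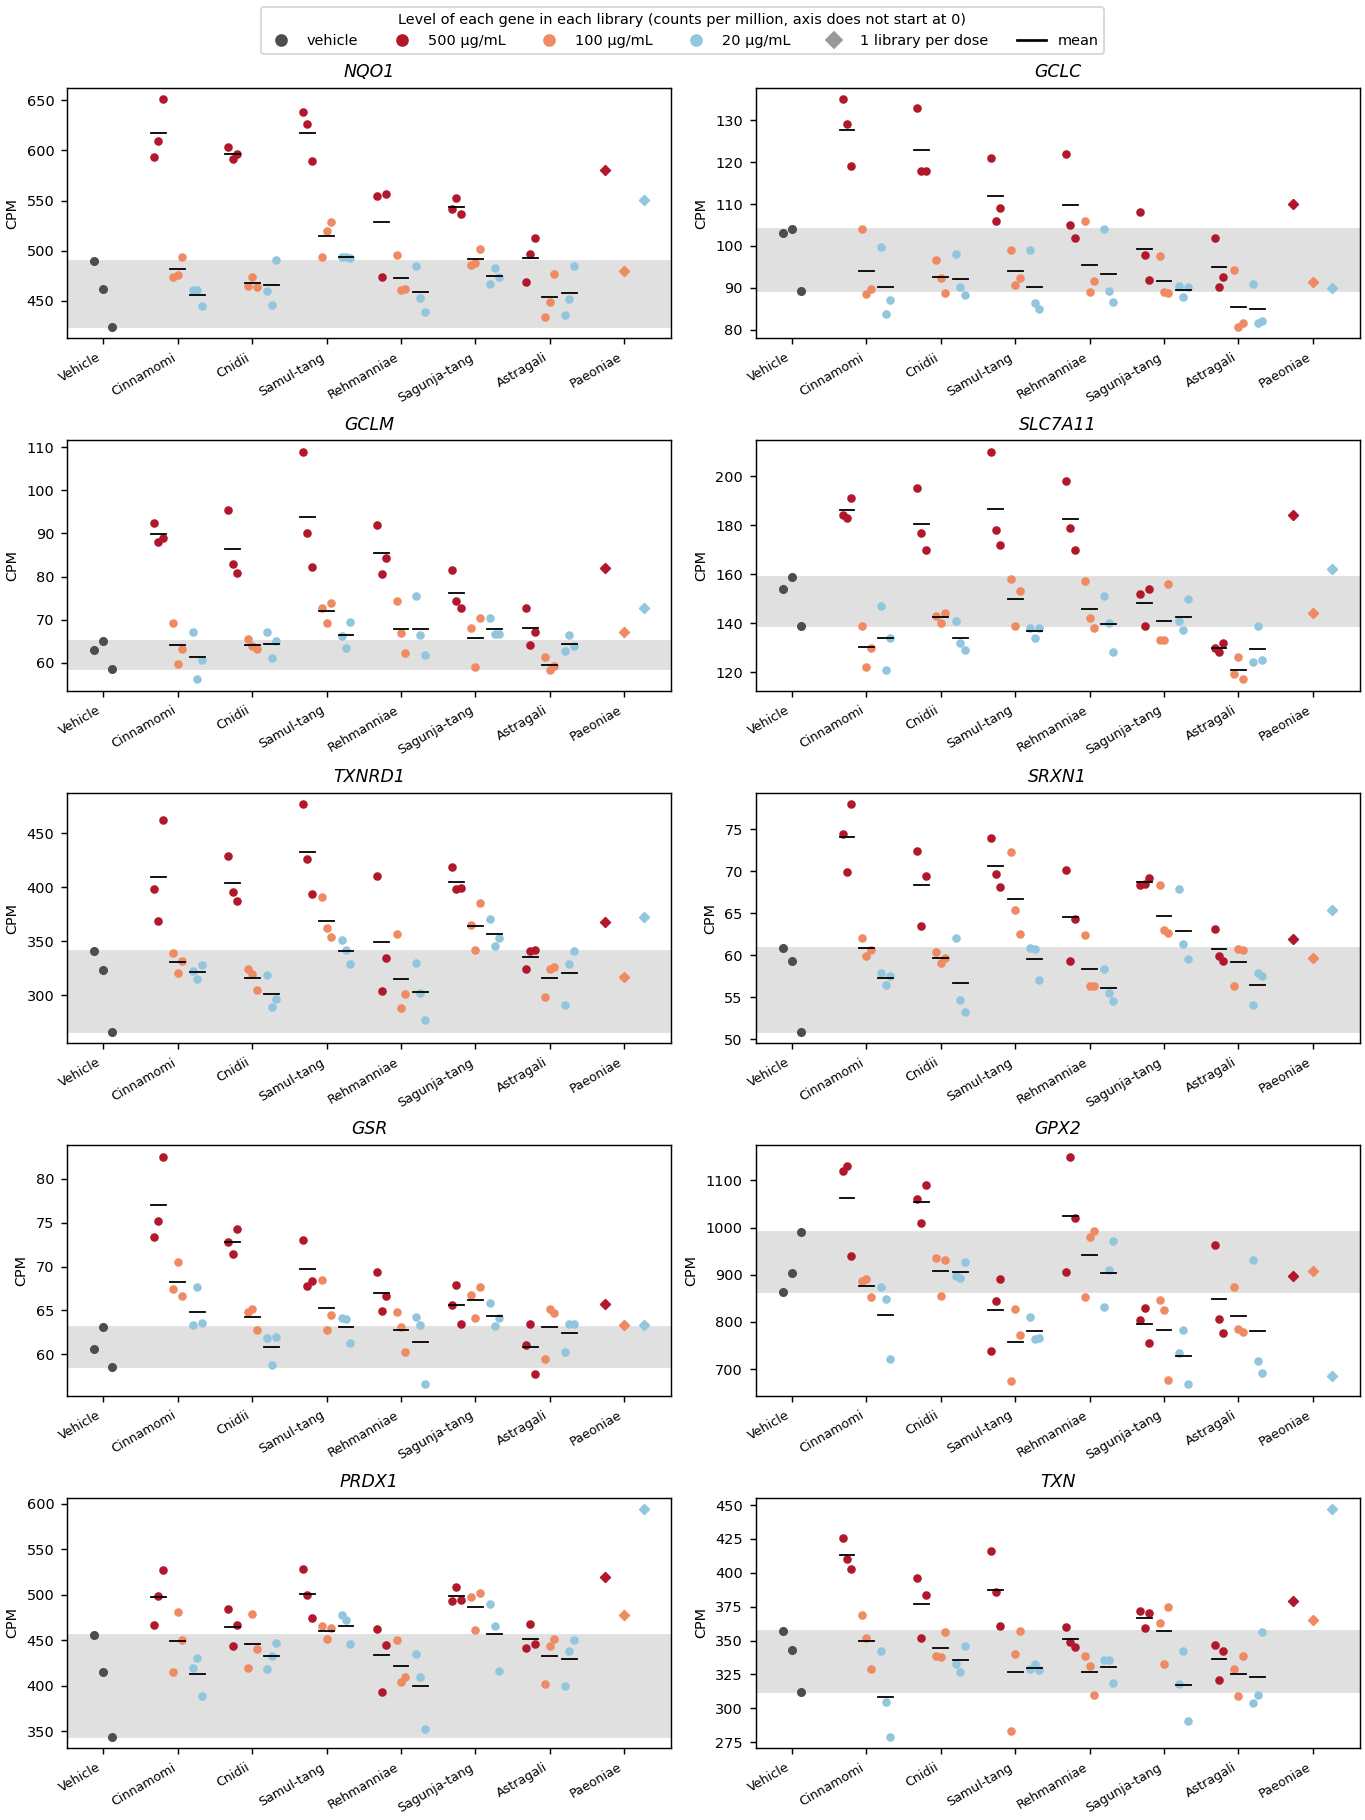
Level of each gene (vertical axis, CPM) in each library: vehicle in grey, 500, 100 and 20 µg/mL in red, orange and blue, with a bar at the mean and a grey band over the vehicle's range. Axes do not start at 0, and Paeoniae Radix has 1 library per dose. All 3 Cinnamomi Cortex libraries at 500 µg/mL lie above the band for every gene but GPX2. The share of all genes for which this holds was not counted.

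The median log2 fold change of the 10 members at 500 µg/mL was 0.36 for Cinnamomi Cortex, 0.30 for Samul-tang, 0.26 for Cnidii Rhizoma, 0.18 for Sagunja-tang, 0.16 for Rehmanniae Radix Preparata and 0.05 for Astragali Radix, where the median of all genes was 0 in each. With the term for the library set the counts became 10 for Cinnamomi Cortex (5.8% of all genes), 6 for Samul-tang (0.648%), 7 for Cnidii Rhizoma (1.31%), 2 for Sagunja-tang (1.08%), 3 for Rehmanniae Radix Preparata (0.764%) and 0 for Astragali Radix (0.569%). Within set 1 alone the counts were 4 for Cnidii Rhizoma (0.85% of all genes) and 1 for Rehmanniae Radix Preparata (0.347%). Set 1 leaves 1 Cinnamomi Cortex library, in which the median log2 fold change of the members was 0.35. Vehicle replicate 3 was the lowest vehicle library for 9 of the 10 genes and the highest for GPX2. Without it, Cnidii Rhizoma fell from 6 calls to 3, Sagunja-tang from 5 to 2 and Rehmanniae Radix Preparata from 2 to 1. Cnidii Rhizoma also had 3 without its own replicate 1, and Rehmanniae Radix Preparata 1 without vehicle replicate 2 or its own replicate 1 or replicate 3.

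The genes of cystine uptake and glutathione synthesis are SLC7A11, GCLC and GCLM. GCLM encodes the modifier subunit of glutamate-cysteine ligase, which catalyses the first step of glutathione synthesis, and it was called in more extracts than GCLC. Its level was 62.9, 65.1 and 58.4 CPM in the vehicle libraries. It was 92.5, 88 and 89 CPM in Cinnamomi Cortex at 500 µg/mL, and 95.4, 83 and 80.9 CPM in Cnidii Rhizoma. All 6 treated libraries lay above the vehicle. The Samul-tang libraries read 109, 90.1 and 82.3 CPM and those of Rehmanniae Radix Preparata 91.9, 80.6 and 84.2 CPM, again with no overlap. GCLM rose 1.51-fold in Samul-tang (log2 0.59, SE 0.08, edgeR adjusted p = 1.8e-06), 1.44-fold in Cinnamomi Cortex (adjusted p = 3.8e-06), 1.39-fold in Cnidii Rhizoma (0.00023), 1.38-fold in Rehmanniae Radix Preparata (0.00082) and 1.22-fold in Sagunja-tang (0.0091). In each of the 5 it stayed called with the library set term, at log2 values from 0.39 to 0.69. In Astragali Radix GCLM was at 64.2 to 72.8 CPM, a log2 difference of 0.13 with a 95% interval from -0.03 to 0.29.

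GCLC, the catalytic subunit of the same ligase, was at 103, 104 and 89.2 CPM in the vehicle. Cinnamomi Cortex at 500 µg/mL gave 135, 129 and 119 CPM and Cnidii Rhizoma 133, 118 and 118 CPM, all above the vehicle. The rise was 1.29-fold in Cinnamomi Cortex (log2 0.37, SE 0.08, edgeR adjusted p = 0.0013) and log2 0.32 in Cnidii Rhizoma (SE 0.08, 0.032). Samul-tang gave 121, 106 and 109 CPM, which do not overlap the vehicle either, but the difference (log2 0.18) was not called (adjusted p = 0.12). It was called with the library set term, at log2 0.36 and an adjusted p of 0.012. GCLC was higher in set 1 than in set 2 in all 6 groups that hold both, by a median of 0.18 on the log2 scale. All Samul-tang libraries are in set 2. Set 1 is replicate 1 alone in those 6 groups. Replicate 1 was also the highest in Cnidii Rhizoma and Samul-tang at 500 µg/mL, where all libraries share a set. Set and replicate number cannot be told apart here, and the part of each in the value with the set term was not tested. Sagunja-tang at 92 to 108 CPM had a log2 difference of 0.00 (95% interval -0.16 to 0.17).

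SLC7A11 encodes the transporter subunit that brings cystine into the cell in exchange for glutamate. It was at 154, 159 and 139 CPM in the vehicle and at 184, 183 and 191 CPM in Cinnamomi Cortex at 500 µg/mL. Samul-tang gave 210, 178 and 172 CPM. Both groups lay above the vehicle throughout. SLC7A11 rose 1.23-fold in Cinnamomi Cortex (log2 0.30, SE 0.07, edgeR adjusted p = 0.0032) and 1.24-fold in Samul-tang (0.31, SE 0.07, 0.0035). Cnidii Rhizoma (170 to 195 CPM) and Rehmanniae Radix Preparata (170 to 198 CPM) also lay wholly above the vehicle, with log2 differences of 0.26 and 0.28 that were not called (adjusted p = 0.056 and 0.066) and that were called with the library set term (0.037 and 0.041). In Astragali Radix the gene lay on the other side. It was at 130, 128 and 132 CPM at 500 µg/mL and at 119, 126 and 117 CPM at 100 µg/mL, all below the lowest vehicle library. The value at 100 µg/mL fell by 0.32 on the log2 scale (SE 0.07, adjusted p = 0.011; 0.899% of all genes were called lower there), and with the set term it was -0.30 with an adjusted p of 0.069. At 500 µg/mL the log2 difference was -0.21 (adjusted p = 0.091). Values below the vehicle were not particular to Astragali Radix. At 100 and 20 µg/mL SLC7A11 was below the vehicle's mean in all the other tested extracts too, and not called lower there. These values ran from log2 -0.21 in Cinnamomi Cortex (edgeR adjusted p = 0.069) to -0.01 in Samul-tang, both at 100 µg/mL. Samul-tang at 20 µg/mL, at 134 to 138 CPM, lay below all vehicle libraries.

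GSR and GPX2 act on glutathione itself. GSR, glutathione reductase, returns oxidised glutathione to its reduced form and had the tightest replicates of the 10 genes in the vehicle, at 60.6, 63.1 and 58.6 CPM. Cinnamomi Cortex at 500 µg/mL gave 73.4, 75.2 and 82.5 CPM and Cnidii Rhizoma 72.8, 71.4 and 74.3 CPM. No treated library of these overlapped the vehicle. GSR rose 1.27-fold in Cinnamomi Cortex (log2 0.34, SE 0.05, edgeR adjusted p = 7.1e-07), 1.20-fold in Cnidii Rhizoma (0.26, SE 0.05, 0.00074) and 1.15-fold in Samul-tang (0.20, SE 0.05, 0.0037). The Samul-tang call was lost with the library set term (log2 0.14, adjusted p = 0.22). GSR was also the member called in Cinnamomi Cortex at 100 µg/mL, at 67.5, 70.5 and 66.6 CPM (log2 0.17, adjusted p = 0.025; 3.83% of all genes were called higher there), and this call too was lost with the set term (log2 0.13, adjusted p = 0.20). Astragali Radix at 500 µg/mL differed from the vehicle by 0.00 (95% interval -0.09 to 0.10).

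GPX2, a selenium-dependent peroxidase that reduces hydrogen peroxide with glutathione, was the member that no extract moved past the test at 500 µg/mL. Its vehicle libraries read 863, 904 and 990 CPM. Those of Cinnamomi Cortex read 1120, 1130 and 939 CPM and those of Cnidii Rhizoma 1060, 1010 and 1090 CPM. The first group overlapped the vehicle through its replicate 3 and the second did not overlap it. The log2 differences were 0.21 (95% interval 0.02 to 0.40, edgeR adjusted p = 0.16) and 0.19 (0.00 to 0.38, 0.43). With the library set term GPX2 was called in Cinnamomi Cortex, at log2 0.33 and an adjusted p of 0.011. Both formulae had lower values, at 738 to 891 CPM in Samul-tang and 755 to 830 CPM in Sagunja-tang at 500 µg/mL. GPX2 was called lower in Samul-tang at 100 µg/mL (log2 -0.28, SE 0.10, adjusted p = 0.035) and in Sagunja-tang at 20 µg/mL (-0.34, SE 0.10, 0.015), where 9.94% and 8.85% of all genes were called lower. With the set term these values were -0.09 and -0.14 (adjusted p = 0.81 and 0.68). GPX2 was higher in set 1 in all 6 groups that hold both sets, by a median of 0.16. Set and formula cannot be told apart for this gene by these libraries without that term.

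The thioredoxin side holds TXN, the thioredoxin of the cytoplasm, TXNRD1, the NADPH-dependent selenoprotein that reduces it, PRDX1, a peroxidase that uses thioredoxin, and SRXN1, sulfiredoxin, which repairs peroxiredoxins that were overoxidised. TXNRD1 was at 341, 323 and 266 CPM in the vehicle. It was at 398, 369 and 462 CPM in Cinnamomi Cortex, 429, 396 and 387 CPM in Cnidii Rhizoma and 477, 426 and 394 CPM in Samul-tang at 500 µg/mL. None of these 9 libraries overlapped the vehicle. TXNRD1 rose 1.39-fold in Samul-tang (log2 0.48, SE 0.09, edgeR adjusted p = 0.00018), 1.32-fold in Cinnamomi Cortex (0.40, SE 0.09, 0.00072), 1.31-fold in Sagunja-tang (0.39, SE 0.09, 0.0016) and 1.3-fold in Cnidii Rhizoma (0.38, SE 0.09, 0.009). The Sagunja-tang call was lost with the library set term (log2 0.32, adjusted p = 0.072). Rehmanniae Radix Preparata spread from 304 to 410 CPM, with 2 of 3 libraries inside the vehicle's range (log2 0.17, 95% interval 0.00 to 0.34).

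SRXN1 was at 60.9, 59.3 and 50.9 CPM in the vehicle and at 74.5, 69.9 and 78 CPM in Cinnamomi Cortex at 500 µg/mL. Sagunja-tang gave 68.4, 68.5 and 69.2 CPM and Samul-tang 74, 69.7 and 68.1 CPM. All of them lay above the vehicle. SRXN1 rose 1.3-fold in Cinnamomi Cortex (log2 0.37, SE 0.06, edgeR adjusted p = 2.5e-05), 1.23-fold in Samul-tang (adjusted p = 0.0011), 1.20-fold in Sagunja-tang (0.0028) and 1.20-fold in Cnidii Rhizoma (0.018), and these 4 calls held with the library set term. The formulae also raised it at 100 µg/mL without that term, by 0.22 on the log2 scale in Samul-tang (adjusted p = 0.01; 12% of all genes were called higher) and by 0.18 in Sagunja-tang (0.045; 9.34%), and not with it (adjusted p = 0.22 and 0.37).

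PRDX1 had the widest vehicle spread for its level, at 456, 415 and 344 CPM. It was at 467, 499 and 527 CPM in Cinnamomi Cortex, 528, 500 and 474 CPM in Samul-tang and 493, 508 and 494 CPM in Sagunja-tang at 500 µg/mL. These groups lay above the vehicle, the first by a narrow margin in its replicate 1. The rises were 1.23-fold (log2 0.30, SE 0.07, edgeR adjusted p = 0.0046), 1.24-fold (0.31, SE 0.07, 0.0041) and 1.23-fold (0.30, SE 0.07, 0.0042). With the library set term PRDX1 kept its call in Cinnamomi Cortex (log2 0.23, adjusted p = 0.041) and not in Samul-tang (0.20, 0.26) or Sagunja-tang (0.20, 0.24). PRDX1 was lower in set 1 than in set 2 in 5 of the 6 groups that hold both, with a median log2 difference of -0.14 over the 6, while the vehicle is all in set 1.

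TXN was at 357, 343 and 312 CPM in the vehicle and at 426, 410 and 403 CPM in Cinnamomi Cortex at 500 µg/mL, with no overlap. It rose 1.22-fold there (log2 0.29, SE 0.07, edgeR adjusted p = 0.0023). Samul-tang gave 416, 386 and 361 CPM, all above the vehicle, and a 1.15-fold rise (log2 0.20, adjusted p = 0.036) that was not called with the library set term (0.26, 0.085). Cnidii Rhizoma gave 396, 352 and 384 CPM, with 1 library inside the vehicle's range and no call (log2 0.16, adjusted p = 0.31).

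NQO1, a quinone reductase that uses NADPH or NADH and a much-used readout of NRF2 activity, was at 490, 462 and 424 CPM in the vehicle. It was at 593, 609 and 651 CPM in Cinnamomi Cortex, 603, 591 and 596 CPM in Cnidii Rhizoma and 638, 626 and 589 CPM in Samul-tang at 500 µg/mL. The lowest of these 9 libraries stood well above the highest vehicle library. NQO1 rose 1.35-fold in Cinnamomi Cortex (log2 0.43, SE 0.05, edgeR adjusted p = 1.2e-08), 1.35-fold in Samul-tang (0.43, SE 0.05, 1.5e-07) and 1.3-fold in Cnidii Rhizoma (0.38, SE 0.05, 3.2e-06). Sagunja-tang (542, 553 and 537 CPM) rose 1.19-fold (adjusted p = 0.00082), and Rehmanniae Radix Preparata (555, 474 and 557 CPM) 1.15-fold (0.039) with 1 library inside the vehicle's range. The Sagunja-tang call was lost with the library set term (log2 0.18, adjusted p = 0.075). In Astragali Radix NQO1 was at 469 to 513 CPM, a log2 difference of 0.10 (95% interval 0.00 to 0.20, adjusted p = 0.25).

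**Figure D2:**
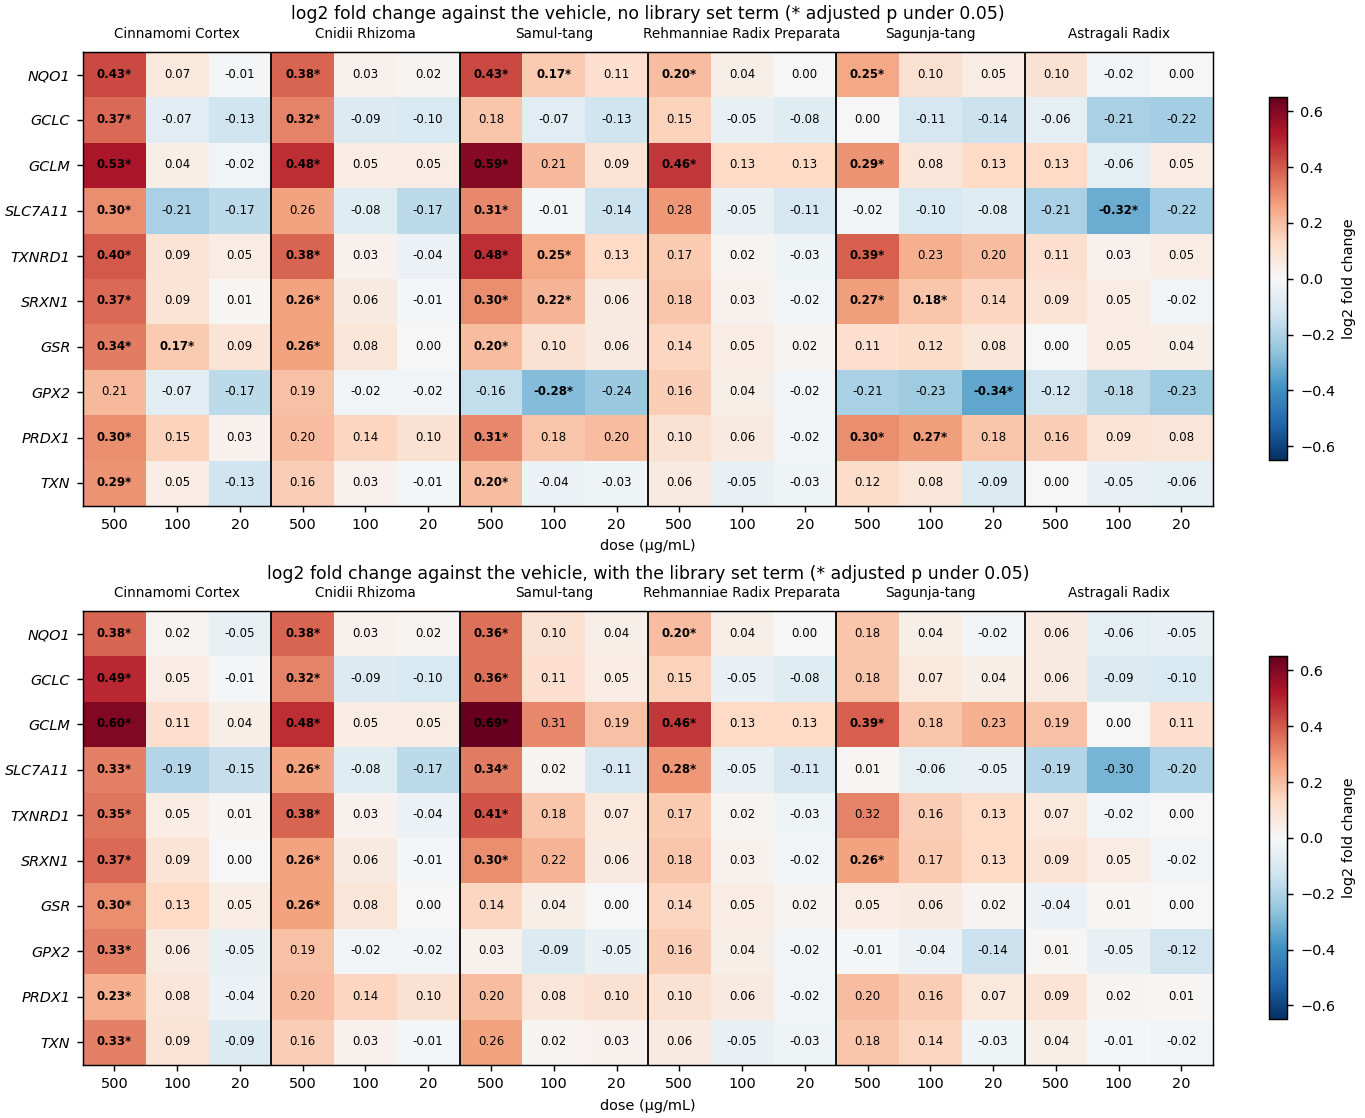
Log2 fold change of each gene (rows) against the vehicle for each extract and dose in µg/mL (columns), without (upper panel) and with (lower panel) the library set term; red is higher, blue lower, and an asterisk marks an adjusted p under 0.05. The calls gather in the 500 µg/mL columns, and no call at 100 or 20 µg/mL is left in the lower panel.

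At the 2 lower doses few members were called, and left-out libraries changed most of these counts. Samul-tang at 100 µg/mL raised SRXN1, NQO1 (log2 0.17, edgeR adjusted p = 0.016) and TXNRD1 (0.25, 0.03), of which the last 2 were at 0.10 (0.52) and 0.18 (0.50) with the library set term. Sagunja-tang at 100 µg/mL raised SRXN1 and PRDX1. PRDX1 there was log2 0.27 (SE 0.07, edgeR adjusted p = 0.013), and 0.16 (0.48) with the library set term. The 3 calls of Samul-tang at 100 µg/mL became 0 without vehicle replicate 3 and 1 without its own replicate 1 or replicate 2. The 2 of Sagunja-tang became 0 without vehicle replicate 3 or its own replicate 3, and 1 without vehicle replicate 2 or its own replicate 1. The 1 of Cinnamomi Cortex, GSR, became 0 without vehicle replicate 1, vehicle replicate 3 or its own replicate 2. Cnidii Rhizoma and Rehmanniae Radix Preparata had 0 members called at either dose (0.11% and 0.22% of all genes called higher in the first, 0.165% and 0.41% in the second). At an unadjusted p under 0.05 they had 1 between them, SLC7A11 in Cnidii Rhizoma at 20 µg/mL at -0.17, and DESeq2 called 0. Cinnamomi Cortex at 20 µg/mL had 0 (1.26% of all genes), and 0 by DESeq2, with 1 lower before adjustment at p under 0.05. Astragali Radix had 0 higher at both doses (1.61% and 0.997% of all genes), by DESeq2 also 0, with 0 higher at an unadjusted p under 0.05 and 3 lower at 20 µg/mL. For Samul-tang at 20 µg/mL the count was 0 (5.85% of all genes), while DESeq2 called 1 higher, and 2 higher and 1 lower had an unadjusted p under 0.05, and edgeR called 1 without vehicle replicate 1. For Sagunja-tang at 20 µg/mL no member was called higher (9.68% of all genes), by DESeq2 also 0, with 3 higher before adjustment at p under 0.05 and 2 called without vehicle replicate 1.

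The comparison of 500 with 20 µg/mL within an extract uses no vehicle library, and by sample code its arms hold the same library sets. By the first principal component they do not in Cinnamomi Cortex, where the library of 500 µg/mL numbered 2 lay with set 1. With sets drawn from that component the Cinnamomi Cortex count was 10 (5.4% of all genes). All 10 members were called higher at 500 than at 20 µg/mL of Cinnamomi Cortex, where 4.6% of all genes were. Cnidii Rhizoma had 7 (0.251% of all genes), Samul-tang 3 (0.11%), Rehmanniae Radix Preparata 1 (0.11%), and Astragali Radix (0.0183%) and Sagunja-tang (0.00611%) had 0 each. No member was called lower. Of the 2 extracts with 0, DESeq2 called 0 members in Astragali Radix and 1 in Sagunja-tang, and 1 and 5 had an unadjusted p under 0.05. In Samul-tang and Rehmanniae Radix Preparata the counts rose with the library set term, to 5 and 3 (0.177% and 0.19% of all genes). Within set 1, the count was 5 for Cnidii Rhizoma (0.209% of all genes) and 1 for Rehmanniae Radix Preparata (0.0838%). Cinnamomi Cortex had 1 library a dose there, and a median log2 difference of 0.34 against 0.40 over both sets.

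In Cinnamomi Cortex the difference between the doses was 1.47-fold for GCLM (log2 0.55, SE 0.08, edgeR adjusted p = 1.9e-06), 1.42-fold for GCLC (adjusted p = 1.9e-05), 1.39-fold for SLC7A11 (6.5e-06), 1.36-fold for NQO1 (1e-08), 1.34-fold for TXN (1.7e-05) and 1.3-fold for GPX2 (0.0066). GPX2, which was not called against the vehicle, was at 874, 848 and 722 CPM at 20 µg/mL, with all 3 libraries below all 3 at 500 µg/mL. The smallest differences were those of GSR, at 1.19-fold (log2 0.25), and PRDX1, at 1.20-fold (0.27). Against 100 µg/mL the 500 µg/mL libraries were higher in 8 members (3.04% of all genes), all but GPX2 (log2 0.28, adjusted p = 0.083) and PRDX1 (0.15, 0.27). That count was 5 without replicate 3 of the 100 µg/mL libraries and 0 within set 1, with 1 library a dose. Between 100 and 20 µg/mL edgeR called 0 members and 0% of all genes higher, DESeq2 also called 0 members, and 1 member was higher at an unadjusted p under 0.05.

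In Cnidii Rhizoma, SLC7A11 was at 195, 177 and 170 CPM at 500 µg/mL and at 141, 132 and 129 CPM at 20 µg/mL, with no overlap. That 1.35-fold difference (log2 0.43, SE 0.07, edgeR adjusted p = 0.00044) was called, while its difference from the vehicle was not. GCLM (1.34-fold, adjusted p = 0.0021), GCLC (1.34-fold, 0.0041), TXNRD1 (1.34-fold, 0.0051), NQO1 (1.28-fold, 1.4e-05), SRXN1 (1.21-fold, 0.024) and GSR (1.20-fold, 0.0014) were also called. GPX2, PRDX1 and TXN were not, at log2 0.21, 0.10 and 0.17. Without its replicate 1 at 500 µg/mL the count for Cnidii Rhizoma was 3. In Samul-tang the called members were GCLM (1.41-fold, adjusted p = 0.00021), SLC7A11 (1.36-fold, 0.00037) and NQO1 (log2 0.32, 0.00018), and in Rehmanniae Radix Preparata SLC7A11 (1.3-fold, 0.0061). The Rehmanniae Radix Preparata count was 0 without replicate 1 at 500 µg/mL and also without replicate 3 at 20 µg/mL, and 2 without replicate 2 at 500 µg/mL or replicate 1 at 20 µg/mL.

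**Figure D3:**
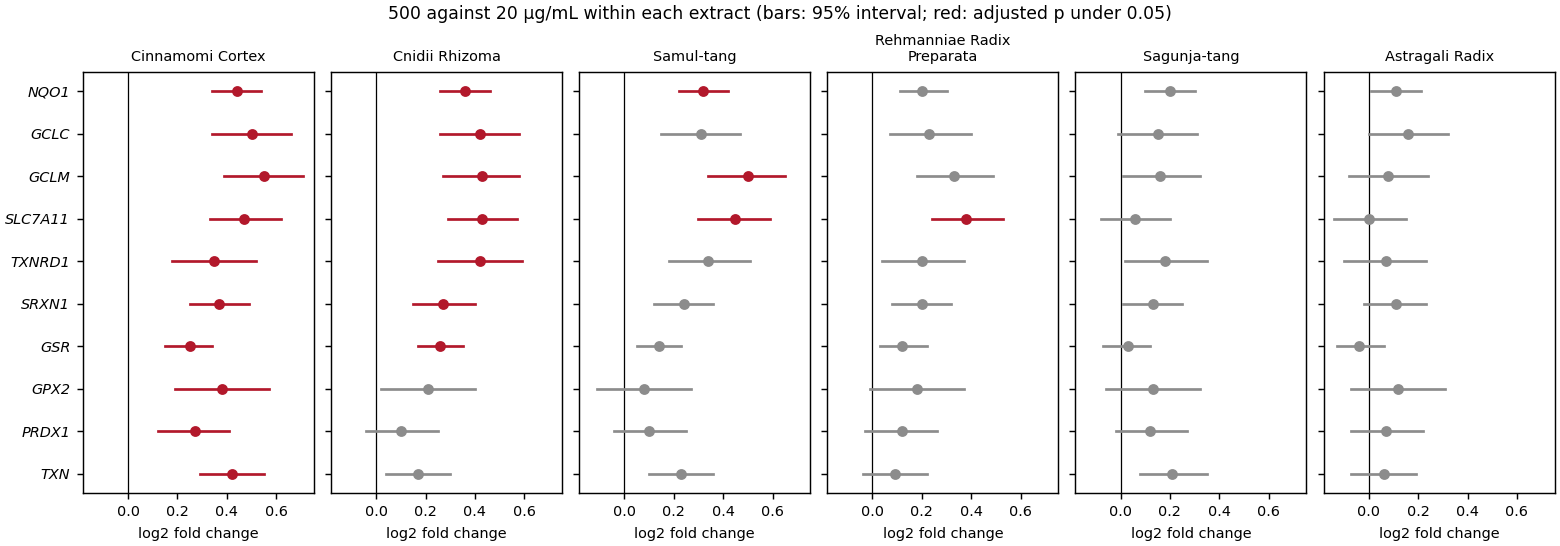
Log2 fold change of 500 against 20 µg/mL (horizontal axis) of each gene within each extract, 3 libraries a dose; points are edgeR estimates, bars 95% intervals, and red marks an adjusted p under 0.05. All 10 genes are red in Cinnamomi Cortex, 7 in Cnidii Rhizoma, and none in Sagunja-tang or Astragali Radix.

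Extracts whose libraries fall in the 2 sets alike by sample code were also compared with each other at 500 µg/mL. Cinnamomi Cortex stood above Astragali Radix in 9 of the 10 genes, where 4.97% of all genes were called higher. SLC7A11 differed most, 1.43-fold (log2 0.52, SE 0.07, edgeR adjusted p = 9.7e-07), then GCLC at 1.35-fold (adjusted p = 2e-04) and GCLM at 1.32-fold (0.00034). GPX2 was called in this comparison (log2 0.32, SE 0.10, adjusted p = 0.023), and PRDX1 was not (0.14, 95% interval -0.01 to 0.29). The 9 calls held with the library set term (6.95% of all genes). Within set 1, with 1 library of each extract, the median log2 difference of the members was 0.29, against 0.32 over both sets. The difference between the extracts in their 500 against 20 µg/mL changes was itself called for 5 members (1.12% of all genes): NQO1 (log2 0.33, SE 0.07, adjusted p = 0.0029), GCLM (0.47, SE 0.11, 0.0099), SLC7A11 (0.47, SE 0.10, 0.004), GSR (0.28, SE 0.07, 0.0083) and TXN (0.36, SE 0.10, 0.026). It was called for 6 with the library set term (1.75% of all genes), and for 3 without replicate 2 of Cinnamomi Cortex at 20 µg/mL. Within set 1, with 1 library a group, its median over the members was log2 0.22, against 0.31 over both sets.

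Cnidii Rhizoma and Rehmanniae Radix Preparata at 500 µg/mL had 0 members called apart by edgeR (0.0367% of all genes called higher) and 0 by DESeq2, while 4 were higher in Cnidii Rhizoma at an unadjusted p under 0.05. The difference was 0.02 for GCLM (95% interval -0.14 to 0.17), -0.01 for SLC7A11 (-0.16 to 0.13), 0.17 for NQO1 (0.07 to 0.27, adjusted p = 0.30) and 0.21 for TXNRD1 (0.04 to 0.38). So a difference of the size seen between Cinnamomi Cortex and Astragali Radix lies outside the intervals of GCLM and SLC7A11. Their dose differences gave 0 calls as well (0.00611% of all genes), also by DESeq2, with 1 member at an unadjusted p under 0.05. Samul-tang exceeded Sagunja-tang in SLC7A11 alone by the test (0.0306% of all genes), with 210, 178 and 172 CPM against 152, 139 and 154 CPM and no overlap. That was 1.26-fold (log2 0.33, SE 0.07, edgeR adjusted p = 0.018), and it was not called without replicate 1 of Samul-tang or without replicate 2 of Sagunja-tang, while 2 members were called without replicate 3 of Samul-tang. GCLM differed by 0.30 (95% interval 0.15 to 0.46, adjusted p = 0.10) and the other 8 by 0.01 to 0.18. The difference between the dose changes of the formulae gave 0 members by edgeR (0% of all genes) and by DESeq2, with 2 at an unadjusted p under 0.05. Cinnamomi Cortex against Cnidii Rhizoma (0.929% of all genes) and Samul-tang against Cnidii Rhizoma (0%) also gave 0 members in that test by edgeR and DESeq2, with 1 and 0 at an unadjusted p under 0.05.

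**Figure D4:**
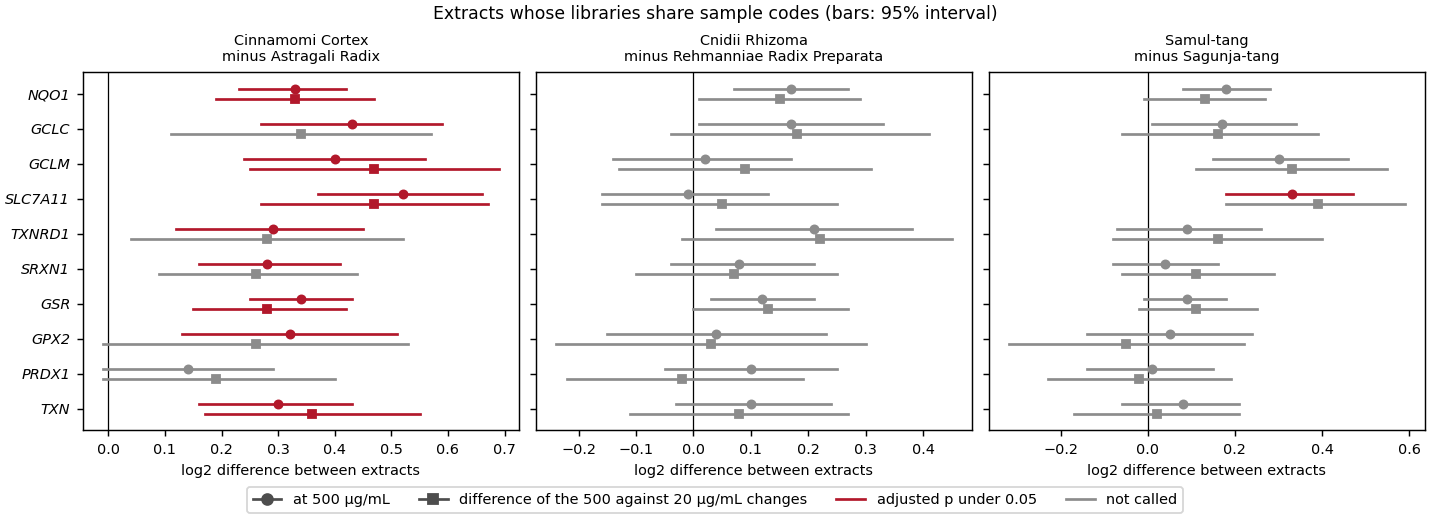
Log2 difference between paired extracts (horizontal axis) for each gene, at 500 µg/mL (circles) and for the 500 against 20 µg/mL changes (squares); bars are 95% intervals and red marks an adjusted p under 0.05. Red symbols are frequent for Cinnamomi Cortex minus Astragali Radix, absent for Cnidii Rhizoma minus Rehmanniae Radix Preparata, and limited to SLC7A11 at 500 µg/mL for Samul-tang minus Sagunja-tang.

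Across the 19 group means the members moved together to unequal degrees. The 45 pairs of members had a median Pearson r of 0.76, from -0.129 for GPX2 with PRDX1 to 0.956 for TXNRD1 with SRXN1. These points share the library sets, the vehicle and the doses, and the values describe these groups only. NQO1 had the highest median r with the other 9 genes, 0.875, and GPX2 the lowest, 0.433. Among replicates within groups the median r of GPX2 with the others was -0.474, against 0.278 to 0.638 for the other 9. The r of GPX2 with GCLC (0.00259) and with TXN (0.0233) was near 0, and with the remaining members it was from -0.752 to -0.332. In the vehicle, replicate 3 was the highest in GPX2 and the lowest in the others.

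The genes outside the list whose mean log2 levels over the 19 groups were most like the mean of the members were SERPINB5 (Pearson r 0.977), UGT1A6 (0.969), UGT1A10 (0.967), ME1 (0.955) and HTATIP2 (0.953). UGT1A6 and UGT1A10 are glucuronosyltransferases that share exons, and ME1 is the cytosolic malic enzyme, which makes NADPH. For single members, the most alike were MGST1, a microsomal glutathione transferase, for GPX2 (0.981), UGT1A10 for NQO1 (0.977) and GCLM (0.948), ALDH3A2 for TXNRD1 (0.975), and UGDH, which makes the sugar donor for glucuronidation, for GCLC (0.966). For SRXN1 it was ALDH1A1 (0.95), for PRDX1 RAB5IF (0.948), for SLC7A11 GPAT3 (0.937), for GSR ST6GALNAC4 (0.919) and for TXN PNP (0.917).

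Other genes of the pathway were counted in lists that hold none of the 10. For these lists the fit with the library set term was added after the data were seen. Of 22 other NRF2 targets, Cinnamomi Cortex at 500 µg/mL raised 20 (median log2 0.52), Cnidii Rhizoma 17 (0.33), Samul-tang 15 (0.27), Rehmanniae Radix Preparata 10 (0.26), Sagunja-tang 9 (0.14) and Astragali Radix 2 (0.06), and 1 was lower, in Sagunja-tang. Under the set term these counts became 20, 17, 9, 12, 2 and 0 in that order, and 0 lower. These stand beside 6.22%, 0.734%, 10.2%, 0.404%, 11.7% and 2.12% of all genes called higher without the term, in the same order, and 5.8%, 1.31%, 0.648%, 0.764%, 1.08% and 0.569% with it. In Sagunja-tang 1390 of all 16356 genes were called lower without the term. The largest rises in Cinnamomi Cortex were in AKR1C2 (log2 1.69, SE 0.09, edgeR adjusted p = 2e-18) and AKR1C1 (1.45, SE 0.09, 3e-16), aldo-keto reductases whose near-identical sequences make the split of reads between them uncertain, and in ABCC2 (1.26, SE 0.22, 3.5e-05), an export pump for glutathione conjugates. These exceed all 10 members, of which the largest, GCLM, was at 0.53. HMOX1, haem oxygenase, rose by log2 0.88 (SE 0.08, adjusted p = 3e-11) in Cinnamomi Cortex, 0.47 in Rehmanniae Radix Preparata (0.0011), 0.39 in Cnidii Rhizoma (0.0066) and 0.30 in Samul-tang (0.012; 0.33 and 0.081 with the library set term). It was at 0.03 in Sagunja-tang and -0.16 in Astragali Radix, neither called.

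Of 14 NRF2 control genes, 7 were called higher and 0 lower in Cinnamomi Cortex at 500 µg/mL (median log2 0.14), against 4 and 1 in Samul-tang (0.14), 6 and 1 in Sagunja-tang (0.14), 1 and 0 in Astragali Radix (0.04), and 0 either way in Cnidii Rhizoma and Rehmanniae Radix Preparata. Of all 16356 genes, 6.22%, 10.2%, 11.7%, 2.12%, 0.734% and 0.404% were called higher in that order. Called lower were 1095, 1357, 1390, 239, 122 and 38 genes. With the library set term 2 of the 14 were higher in Cinnamomi Cortex (5.8% of all genes) and 0 were called in the other 5 extracts (0.569% to 1.31% of all genes higher). NFE2L2 itself was not called in Cinnamomi Cortex (log2 -0.16, edgeR adjusted p = 0.12) or Cnidii Rhizoma (-0.13, 0.49). It was called lower in Samul-tang (-0.26, 0.0076) and Sagunja-tang (-0.27, 0.0056), at -0.05 and -0.06 with the library set term (0.76 and 0.70). KEAP1 was called higher in Cinnamomi Cortex (0.25, SE 0.08, 0.037), Samul-tang (0.38, 0.0016), Sagunja-tang (0.35, 0.0027) and Astragali Radix (0.28, 0.044), and in none of them with the set term (adjusted p from 0.26 to 0.48). SQSTM1, the autophagy receptor p62 that binds KEAP1, rose in Cinnamomi Cortex (0.36, SE 0.06, 5e-05) with and without the term, as did MAFK, a small MAF protein, without it (0.27, SE 0.09, 0.038).

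Of the remaining glutathione genes, 18 were tested. At 500 µg/mL 5 were called higher and 2 lower in Sagunja-tang (median log2 0.10), beside 11.7% of all 16356 genes higher and 1390 genes lower. Samul-tang had 3 higher and 3 lower (0.11), beside 10.2% higher and 1357 genes lower. With the library set term 0 were called in both (1.08% and 0.648% of all genes higher). In Cinnamomi Cortex 3 were called higher, beside 6.22% of all genes, and 0 lower (median log2 0.14). With the term it was 5 and 0 (0.12), beside 5.8% of all genes higher. The 3 were CHAC1, which degrades glutathione (0.90, SE 0.16, edgeR adjusted p = 5.6e-05), SLC3A2, the partner chain of SLC7A11 (0.43, SE 0.10, 0.0017), and GLRX3 (0.15, SE 0.04, 0.013), a glutaredoxin. SLC3A2 was at 0.26 with the library set term (0.034). CHAC1 was not called in another extract at this dose, at log2 0.09 to 0.41. SLC3A2 was called in both formulae without the library set term (0.47 in Samul-tang and 0.40 in Sagunja-tang, adjusted p = 0.001 and 0.0035) and not with it (adjusted p = 0.24 and 0.44). The peroxidases GPX1 (-0.16, adjusted p = 0.077) and GPX4 (0.12, 0.29) were not called in Cinnamomi Cortex, and both were called lower in Samul-tang (-0.30 and -0.22) without the set term. By edgeR 0 of these 18 were called in Cnidii Rhizoma, in Rehmanniae Radix Preparata or in Astragali Radix (0.734%, 0.404% and 2.12% of all genes called higher).

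Of 19 other thioredoxin system genes tested, 2 rose and 3 fell in Cinnamomi Cortex at 500 µg/mL (median log2 0.05; 4 and 2 with the library set term). Samul-tang had 7 higher and 2 lower (0.01) and Sagunja-tang 3 higher and 0 lower (0.07), and neither had any with the term. Of all 16356 genes, 6.22%, 10.2% and 11.7% were called higher in these 3 extracts in that order, and 1095, 1357 and 1390 genes lower. With the term 5.8% of all genes were called higher in Cinnamomi Cortex. The sestrins, stress-inducible proteins of which some are p53 targets, split: SESN2 rose (log2 0.35, SE 0.08, edgeR adjusted p = 0.0012), and SESN3 (-0.47, SE 0.15, 0.027) and SESN1 (-0.29, SE 0.05, 0.00015) fell, SESN3 not with the library set term (-0.38, 0.11). SESN1 was also the gene called lower in Rehmanniae Radix Preparata (-0.27, 0.0073). MSRB1, a methionine sulfoxide reductase, rose by 0.33 (SE 0.07, 0.00084). TXNIP, which binds and inhibits thioredoxin, fell by 0.26 (SE 0.06, 0.0018) against the vehicle and by 0.29 against 20 µg/mL (0.00063). In the other extracts at 500 µg/mL TXNIP was between -0.20 and 0.18 and not called. PRDX6, a peroxiredoxin that uses glutathione, was at 0.16 in Cinnamomi Cortex (adjusted p = 0.052). Of 5 superoxide and peroxide enzymes, 0 were called in Cinnamomi Cortex by edgeR and none in Cnidii Rhizoma, Rehmanniae Radix Preparata or Astragali Radix. In each formula 2 were higher, beside 10.2% of all genes in Samul-tang and 11.7% in Sagunja-tang. With the set term 0 were called in Cinnamomi Cortex and Samul-tang and 1 was higher in Sagunja-tang (1.08% of all genes).

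SLC7A11 is also a target of ATF4, the factor of the amino acid response, so genes of that response were counted beside it. Of 15 tested, 13 were called higher in Cinnamomi Cortex at 500 µg/mL (median log2 0.35), among them CHAC1, TRIB3 (log2 0.88, SE 0.09, edgeR adjusted p = 1.7e-10) and ATF3 (0.80, SE 0.14, 5.4e-05). Samul-tang had 5 (0.15), Sagunja-tang 4 (0.12), Astragali Radix 1 (0.06), and Cnidii Rhizoma (0.08) and Rehmanniae Radix Preparata (0.11) 0 each. Of all genes, 6.22% were called higher in Cinnamomi Cortex, and 10.2%, 11.7%, 2.12%, 0.734% and 0.404% in the others in that order. Under the set term the list had 12 called in Cinnamomi Cortex (5.8% of all genes), 1 in Rehmanniae Radix Preparata (0.764%) and 0 in the other 4 (0.569% to 1.31%). In Cnidii Rhizoma and Rehmanniae Radix Preparata SLC7A11 was above all vehicle libraries too. It was not called there (edgeR adjusted p = 0.056 and 0.066) unless the set term was used. The part of either pathway in the level of SLC7A11 was not tested.

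Paeoniae Radix had 1 library per dose, so no test was made. At 500 µg/mL 9 of the 10 genes lay above the highest vehicle library, GPX2 being inside the range at 898 CPM. Examples are GCLM at 81.9 CPM (95% Poisson interval 78.7 to 85.2, counting error only) and NQO1 at 580 CPM (572 to 589). The intervals of SRXN1 (59.1 to 64.8 CPM) and GSR (62.8 to 68.6 CPM) reached down into the vehicle's range. The share of all genes above the highest vehicle library was not counted. These libraries were placed in neither library set, so a difference between sets cannot be told apart from the extract here. At 20 µg/mL of Paeoniae Radix all genes but GCLC and GPX2 lay above the highest vehicle library as well. PRDX1 and TXN were higher in its 20 µg/mL library, at 594 and 447 CPM, than in its 500 µg/mL library, at 520 and 379 CPM. So were TXNRD1 (372 against 368 CPM) and SRXN1 (65.4 against 61.9 CPM). GPX2 was at 686 CPM in the 20 µg/mL library, below the vehicle. The doses do not form a series in these genes, and with 1 library per dose the spread is not known.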

How the data were processed

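RNA-seq of 60 HT29 libraries was used: RSEM expected counts per gene, deposited by the authors without normalisation (8.8% not whole). The submitters' processing notes name STAR 2.7.3a, RSEM 1.3.3, Trim Galore 0.6.5, FastQC 0.11.9 and the build GRCh38, but neither annotation release nor strand setting. Of 273 columns, 213 match no sample described here and were not used.

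Counts were rounded, and 16356 genes passed edgeR's filterByExpr (minimum count 10) over 57 libraries. edgeR 4.0.16 (R 4.3.3) was fitted with TMM factors (0.938 to 1.04), 1 coefficient per group and no block. CPM values use these factors. P-values were adjusted within each of 34 comparisons. Intervals are the estimate plus or minus 1.96 SE. DESeq2 1.42.0, RLE factors, no filter, library set terms, replicate blocks and left-out libraries were alternatives. Between replicates of a group (57 pairs), squared differences (as a chi-square) were 2.52 to 29.2 times what counting error gives. Fits were tested on simulated data.

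The members, lists and tests were chosen with earlier results of these data known. All members were named, and from each other list up to 3 genes called higher and 2 lower by size in Cinnamomi Cortex at 500 µg/mL, plus 9 named whatever their values; for likeness, genes with a mean log2 CPM of at least 3.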

Additional observations from a re-analysis of the deposited data

Results flagged for a closer look

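The change from 20 to 500 µg/mL differed between Cinnamomi Cortex and Astragali Radix in 5 genes, tested as an interaction in edgeR: by log2 0.33 for NQO1, 0.47 for GCLM, 0.47 for SLC7A11, 0.28 for GSR and 0.36 for TXN.

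The Paeoniae Radix libraries entered no comparison. Their Poisson intervals hold only their own counting error, and leave out that of the vehicle libraries and the spread between replicates. Listed here are the values whose Poisson interval lay wholly above the value of the highest vehicle library. At 500 µg/mL these were NQO1 at 580 CPM, GCLC at 110 CPM, GCLM at 81.9 CPM, SLC7A11 at 184 CPM, TXNRD1 at 368 CPM, PRDX1 at 520 CPM and TXN at 379 CPM. At 100 µg/mL they were PRDX1 at 478 CPM and TXN at 365 CPM. At 20 µg/mL they were NQO1 at 551 CPM, GCLM at 72.7 CPM, TXNRD1 at 372 CPM, SRXN1 at 65.4 CPM, PRDX1 at 594 CPM and TXN at 447 CPM.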

How the results depend on the processing

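Over all 34 comparisons 83 values of members were called, of which 21 kept call and direction in every alternative run for them, and 0 reversed. The library set term ended 15 of 83 calls, sets drawn from the first principal component (chosen after seeing the data) 16, no filter 2, RLE factors 1, set 1 alone 41 of 59 and leaving out 1 library 96 of 528. DESeq2 and the blocks ended 0. The set 1 losses were 10 of 10 for Cinnamomi Cortex at 500 against 20 µg/mL, 8 of 8 against 100 µg/mL, 8 of 9 between Cinnamomi Cortex and Astragali Radix and 5 of 5 for their dose changes, all with 1 library a group. The cause was not tested. No comparison had all 3 same-number correlations over all genes above 0.1, and the main fit did not pair the libraries. Pairing is not excluded by that rule. Single correlations reached 0.326, in Astragali Radix at 500 against 20 µg/mL. For 500 against 20 µg/mL in Rehmanniae Radix Preparata, the block by sample code called 0.422% of all genes higher, against 0.11% without it. In Cinnamomi Cortex it was 8.16% against 4.6%. Set 1 alone for these comparisons, and every alternative for the dose-change differences and for Cinnamomi Cortex at 500 against 100 µg/mL, were added after seeing the data. Counts of members called higher that moved by over 1.5 times follow.

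Against the vehicle at 500 µg/mL, leaving out 1 library gave 3 to 6 for Cnidii Rhizoma, 1 to 2 for Rehmanniae Radix Preparata and 2 to 5 for Sagunja-tang. Set 1 alone gave 1 for Rehmanniae Radix Preparata, and for Sagunja-tang the set term gave 2 and the principal component sets 1. At 100 µg/mL, Cinnamomi Cortex had 0 to 1 with 1 library left out, and 0 with no filter, either set term or set 1 alone. Samul-tang had 0 to 4, 5 with no filter and 0 with either set term. Sagunja-tang had 0 to 3, 1 with RLE factors and 0 with either set term. At 20 µg/mL, Samul-tang had 0 to 1 with 1 library left out, 1 with no filter and 1 by DESeq2, and Sagunja-tang 0 to 2 and 2 with no filter.

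For 500 against 20 µg/mL, leaving out 1 library gave 3 to 7 for Cnidii Rhizoma and 0 to 2 for Rehmanniae Radix Preparata, and set 1 alone gave 0 for Cinnamomi Cortex. Rehmanniae Radix Preparata had 6 with no filter, 3 with either set term, 3 with the replicate block, 5 with the block by sample code and 3 by DESeq2. Samul-tang had 7 with no filter, 5 with either set term, 6 with the replicate block, 6 with the block by sample code and 5 by DESeq2. Sagunja-tang had 2 with no filter and 1 each with the principal component sets, the block by sample code and DESeq2, and Astragali Radix 1 with the block by sample code. Cinnamomi Cortex at 500 against 100 µg/mL had 5 to 8 with 1 library left out and 0 in set 1 alone.

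Between extracts at 500 µg/mL, Cinnamomi Cortex exceeded Astragali Radix in 1 in set 1 alone. Cnidii Rhizoma exceeded Rehmanniae Radix Preparata in 1 with no filter and 2 with the block by sample code. Samul-tang exceeded Sagunja-tang in 2 with no filter, 3 with the replicate block, 4 with the block by sample code, and 0 to 2 with 1 library left out. For the differences between dose changes, Cinnamomi Cortex minus Astragali Radix had 3 to 6 with 1 library left out, 0 in set 1 alone and 8 with the block by sample code. With no filter Samul-tang minus Sagunja-tang had 2 and Cinnamomi Cortex minus Cnidii Rhizoma 1.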
